A study of Mus musculus with 12 samples.

Results

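The genes described here code for 8 dual-specificity phosphatases, named Dusp1, Dusp2, Dusp4, Dusp5, Dusp6, Dusp7, Dusp10 and Dusp16. They were taken by name from a table of 56941 genes, and all 8 were among the 16794 genes with enough counts to be tested. RNA was sequenced from CH12F3-2A, a mouse B cell lymphoma line that can switch in culture from IgM to IgA. All cells had been transfected with the Cas9 plasmid pX459, which carried either a Nop16 guide (sgNop16) or a control guide with no target (sgCtr), and kept in puromycin for 72 h. They were then harvested without stimulation or after 24 h of CIT, a mixture of IL-4 at 20 ng/ml, TGF-β at 1 ng/ml and an agent at 1 μg/ml that the treatment protocol calls anti-CD40L and the design text CD40L. The resulting 4 groups (sgCtr_no, sgCtr_CIT, sgNop16_no and sgNop16_CIT) had 3 libraries each, called biological replicates in the design text. The sources used here do not say how many guides were used, or whether the cells were pools or clones. The question of the study is the part that the nucleolar protein NOP16 plays in class switching to IgA.

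Mitogen-activated protein kinases (ERK, JNK and p38) are switched on by phosphorylation of a threonine and a tyrosine, and the MAPK phosphatases of the DUSP family switch them off by removing both phosphates. Many of these phosphatases are themselves transcribed in response to the kinases they act on, which makes them feedback inhibitors. DUSP1, DUSP2, DUSP4 and DUSP5 are inducible nuclear enzymes, of which DUSP5 acts on ERK, DUSP6 and DUSP7 are cytoplasmic ERK phosphatases, and DUSP10 and DUSP16 act mainly on JNK and p38. In B cells the kinases lie downstream of the antigen receptor and of CD40.

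Each member carries the catalytic signature of protein tyrosine phosphatases, in which a histidine stands before the catalytic cysteine and an arginine follows a few residues later. The coding sequence around it is shown to let the members be told apart at the stretch they share. It was read from GENCODE transcripts of the mouse build GRCm38, and capitals mark the codons of the histidine, the cysteine and the arginine.
Dusp1: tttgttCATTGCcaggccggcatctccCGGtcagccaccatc
Dusp2: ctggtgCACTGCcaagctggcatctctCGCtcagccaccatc
Dusp4: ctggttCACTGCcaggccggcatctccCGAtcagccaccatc
Dusp5: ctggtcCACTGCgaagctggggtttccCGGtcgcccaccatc
Dusp6: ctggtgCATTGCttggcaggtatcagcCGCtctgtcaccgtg
Dusp7: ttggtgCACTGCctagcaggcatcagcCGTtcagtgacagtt
Dusp10: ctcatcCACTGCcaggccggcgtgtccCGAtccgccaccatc
Dusp16: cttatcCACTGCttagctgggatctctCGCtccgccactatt
Over these 42 bases the most alike pair was Dusp1 and Dusp4, with 90.5% identical bases, and the least alike were Dusp5 with Dusp7 and Dusp7 with Dusp10, with 57.1% each. Dusp6 and Dusp7, the cytoplasmic ERK phosphatases, shared 76.2%. Dusp10 and Dusp16, which act on JNK and p38, shared 71.4%. Dusp10 was more alike to Dusp4 (85.7%), Dusp1 (78.6%), Dusp2 and Dusp5 (76.2% each), and Dusp16 to Dusp2 (78.6%). The signature lay at a like depth in most of the coding sequences: the cysteine was codon 258 of 367 in Dusp1, 284 of 398 in Dusp4 and 293 of 381 in Dusp6. Dusp16 differed from the others, with the cysteine at codon 244 of 660, so that most of its coding sequence followed the catalytic stretch. The other cysteine codons were 261 of 318 in Dusp2, 263 of 384 in Dusp5, 334 of 422 in Dusp7 and 409 of 483 in Dusp10.

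Library totals lay between 38866418 and 48615177 counts, and the libraries of a group differed from each other by more than counting noise. Calls are genes with an adjusted p under 0.05 by the quasi-likelihood test of edgeR, where the Benjamini-Hochberg adjustment runs over all 16794 genes. In this fit Nop16, the targeted gene, was lower with its guide by 0.31 ± 0.043 on the log2 scale without CIT (adjusted p = 0.000563) and by 0.23 ± 0.043 with CIT (adjusted p = 0.00455), where ± is the model's SE. Its level in counts scaled to library size (CPM) was 104, 108 and 107 in sgCtr_no, 85.9, 82.4 and 88.6 in sgNop16_no, 78.8, 73.1 and 79.3 in sgCtr_CIT, and 64.7, 66.3 and 66.2 in sgNop16_CIT. The groups did not overlap in either state, and most of the Nop16 RNA was still present with its guide. All 9 B cell markers examined were above 0 in every library, and their summed level was 4381 to 4456 CPM in sgCtr_no, 4372 to 4484 in sgCtr_CIT, 4078.5 to 4116.5 in sgNop16_no and 4103 to 4204 in sgNop16_CIT. The guides thus did not overlap in this sum. Its largest member by far was Ighm, at 2515.5 to 2541.5 CPM in sgCtr_no and 2181.5 to 2229.1 in sgNop16_no (log2 -0.20 ± 0.018, adjusted p = 1.1e-05). With CIT Ighm lay at 2238.5 to 2336.7 CPM with sgCtr and 2080.1 to 2158.6 with sgNop16. The guide difference in the sum thus rests largely on this gene. Without CIT, 3 of the 9 markers were called lower with sgNop16 and 1, Blnk, higher. Over all genes 1.53% were lower and 1.79% higher in that comparison. With CIT, 4 of the 9 were called lower and 0 higher, beside 2.77% lower and 3.39% higher over all genes. Cd22, an inhibitory receptor of B cells, fell with CIT from 110.5 to 4.90 CPM with sgCtr and from 115 to 3.41 CPM with sgNop16. The summed macrophage list lay at 7.23 to 8.39 CPM in sgCtr_no, 11.9 to 15.1 in sgCtr_CIT, 9.23 to 10.7 in sgNop16_no and 15.6 to 18.2 in sgNop16_CIT. Its members Lyz2, Mertk and C1qa were at 0 in every library. Csf1r rose with CIT, from 0.691 to 0.970 up to 3.46 to 5.14 CPM with sgCtr (log2 2.48 ± 0.27, adjusted p = 1.6e-06). With sgNop16 Csf1r rose by 2.4 ± 0.26 (adjusted p = 1.64e-06). Adgre1 was at 0 in sgCtr_no and at 0.395 to 0.886 CPM in sgCtr_CIT. Cd68 lay at 6.46 to 7.70 CPM in sgCtr_no and 7.57 to 9.15 in sgCtr_CIT. The summed fibroblast list also moved with CIT, from 1.43 to 2.89 up to 3.22 to 4.66 CPM with sgCtr and from 1.41 to 2.15 up to 3.22 to 5.20 with sgNop16, with Col1a2 and Dcn at 0 throughout. Its member Pdgfrb was called higher with sgCtr (log2 1.28 ± 0.30, adjusted p = 0.00274) and with sgNop16 (1.56 ± 0.31, adjusted p = 0.000742). The other tested member, Col1a1, was not called. The summed T cell list lay at 1.61 to 2.60 CPM without CIT and 0.526 to 0.871 with it, and the erythroid list at 1.65 to 3.63 in all groups. The part of these marker differences in the results was not tested. The labels give no batch.

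To compare members with each other, CPM were divided by the length of each gene's merged exons in kb. By this measure Dusp2, first known from activated lymphocytes, was the most abundant member in every group, with 59.7 ± 1.62 CPM per kb (SD, n = 3) in sgCtr_no and 62.2 ± 3.56 in sgCtr_CIT. It held 54.9% of the summed level of the 8 genes in sgCtr_no and 45.6% in sgCtr_CIT. Without CIT and with sgCtr it was followed by Dusp7 at 15.1, Dusp5 at 13.3, Dusp10 at 5.73, Dusp6 at 5.69, Dusp16 at 4.65, Dusp1 at 3.51 and Dusp4 at 1.01 CPM per kb. Of these neighbours only Dusp10 and Dusp6 had libraries that overlapped.

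The order was another with CIT. In sgCtr_CIT Dusp10 was second with 23.0 CPM per kb, ahead of Dusp7 at 15.9 and Dusp4 at 15.0, whose libraries overlapped, then Dusp6 at 8.35, Dusp5 at 6.23, Dusp16 at 2.98 and Dusp1 at 2.65, the last 2 again overlapping. Dusp4 went from the lowest of the 8 to the fourth, and its share of the summed level from 0.932% to 11.05%. Dusp10 went from 5.27% to 16.9%, and Dusp5 from 12.2% to 4.58%. The summed level of the 8 genes was 107 to 110 CPM per kb in the libraries of sgCtr_no and 131 to 139 in those of sgCtr_CIT. In the sgNop16 groups it was 109 to 112 without CIT and 132 to 139 with CIT. For the guide against Nop16 the order without CIT was Dusp2 at 60.4, Dusp7 at 15.3, Dusp5 at 13.6, Dusp6 at 6.12, Dusp10 at 5.47, Dusp16 at 5.04, Dusp1 at 3.21 and Dusp4 at 1.39 CPM per kb, with overlap between Dusp6 and Dusp10 and between Dusp10 and Dusp16. With CIT it was Dusp2 at 59.6, Dusp10 at 21.1, Dusp4 at 17.2, Dusp7 at 16.2, Dusp6 at 7.60, Dusp5 at 6.41, Dusp16 at 4.03 and Dusp1 at 2.41, with overlap between Dusp4 and Dusp7 and between Dusp6 and Dusp5. The members with the largest shifts in rank, Dusp4, Dusp10 and Dusp5, shifted the same way with both guides.

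**Figure D1:**
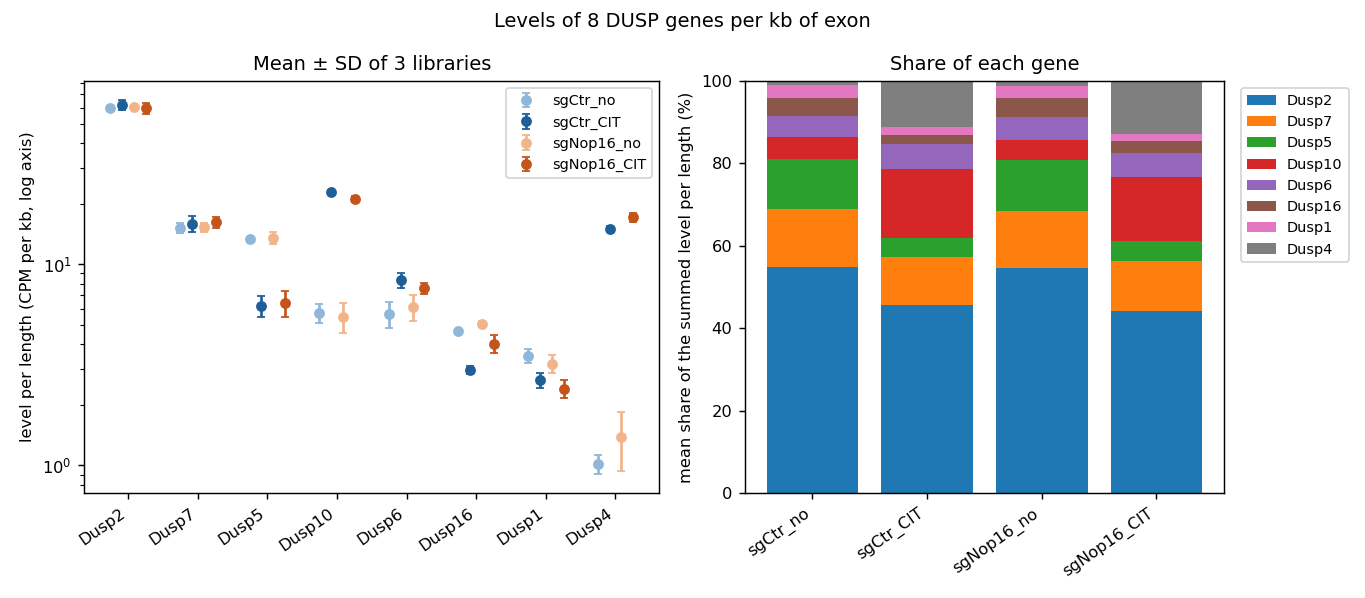
Left, mean level of each gene in CPM per kb of exon on a log axis, with the SD of 3 libraries, coloured by group. Right, mean share of each gene in the summed level of the 8 genes in each group (percent); Dusp2 holds 54.9% in sgCtr_no and 45.6% in sgCtr_CIT, and Dusp4 goes from 0.932% to 11.05%.

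CIT changed 6 of the 8 genes in cells with the control guide. Dusp4, Dusp10 and Dusp6 rose, Dusp5, Dusp16 and Dusp1 fell, and Dusp2 and Dusp7 were not called. Over all genes 41.4% were called in this comparison, 20.4% higher and 20.9% lower. Their libraries did not overlap between the states, which held for 50.6% of all genes. The median log2 difference was 0.07 over the 8 genes and 0.018 over all genes tested. In cells with the guide against Nop16, 2 members rose and 3 fell, where 37% of all genes were called, 18.9% higher and 18.2% lower. The libraries of these 5 did not overlap, against 47% of all genes. There the median was 0.03 over the 8 genes and 0.012 over all. In bulk libraries fewer expressing cells and less RNA per cell cannot be told apart.

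**Figure D2:**
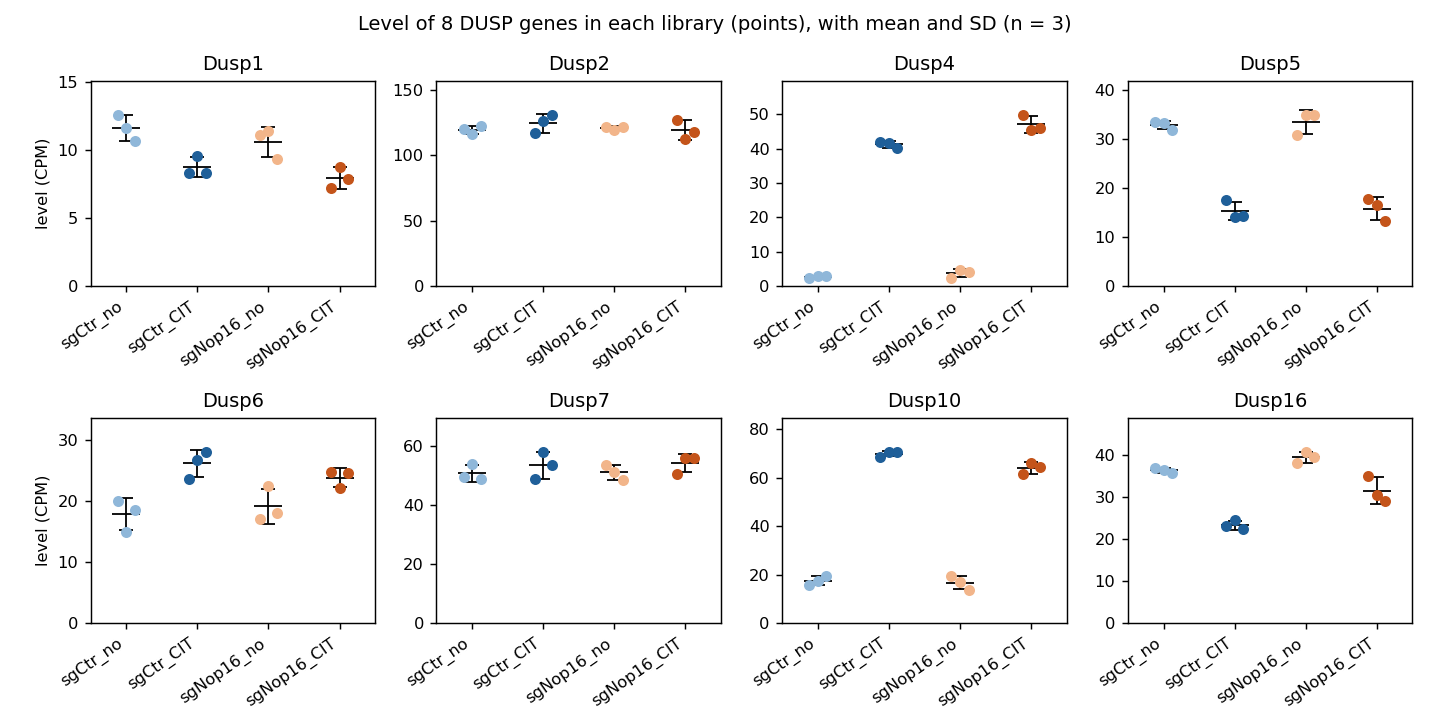
Level of each of the 8 genes in CPM (each panel has its own scale, from 0) in the 4 groups; points are libraries, bars the mean and SD of 3 libraries. The libraries with CIT lie above those without for Dusp4 and Dusp10 and below them for Dusp1, Dusp5 and Dusp16 with both guides.

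Among the nuclear phosphatases, Dusp4, which acts on ERK and JNK, had the largest response. With sgCtr its level was 2.43, 2.91 and 2.98 CPM without CIT and 42.0, 41.7 and 40.05 CPM with CIT. With sgNop16 it was 2.43, 4.78 and 4.22 CPM without and 49.7, 45.4 and 46.0 CPM with CIT. All stimulated libraries stood far above all unstimulated ones. The rise was 14.8-fold with sgCtr (log2 3.89 ± 0.17, adjusted p = 1.36e-11) and 12.4-fold with sgNop16 (log2 3.63 ± 0.16, adjusted p = 2.58e-11). The unstimulated level rested on 95 to 200 counts per library, and on fewer fragments if, as may be, a fragment counts as about 4.

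Dusp5, the nuclear phosphatase that acts on ERK, went the other way. Its level with sgCtr was 33.5, 33.3 and 31.9 CPM without CIT and 17.6, 14.2 and 14.4 CPM with CIT. With sgNop16 it was 30.8, 34.9 and 34.9 CPM without and 17.7, 16.6 and 13.2 CPM with CIT. Every stimulated library lay below every unstimulated one. Dusp5 fell by 1.09 ± 0.11 on the log2 scale with sgCtr (2.14-fold lower, adjusted p = 3.77e-07) and by 1.08 ± 0.11 with sgNop16 (2.11-fold lower, adjusted p = 5.21e-07). A gene on the opposite strand, AC137853.2, shares exon bases with Dusp5 in the GRCm38 annotation, and the sources used here do not say whether strand was used in counting.

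Dusp1, an early-response phosphatase that acts on p38, JNK and ERK, fell by less. Its level with sgCtr was 12.6, 11.6 and 10.7 CPM without CIT and 8.35, 9.62 and 8.35 CPM with CIT. With sgNop16 it was 11.1, 11.4 and 9.39 CPM without and 7.25, 8.81 and 7.87 CPM with CIT. The stimulated libraries lay below the unstimulated ones with each guide, by a narrow margin. The difference was -0.41 ± 0.12 with both guides, 1.33-fold lower with each (adjusted p = 0.0125 with sgCtr and 0.0132 with sgNop16). Each of these calls was lost when 1 library was left out: without sgCtr_no replicate 1 the adjusted p was 0.0583, and without sgNop16_CIT replicate 1 it was 0.0588. Dusp1 shares exon bases with Ergic1 on the opposite strand.

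Dusp2 was the member with the highest level and showed no call. With sgCtr it stood at 120, 116 and 122 CPM without CIT and 117, 126 and 131 CPM with CIT. With sgNop16 it stood at 122, 119 and 122 CPM without and 127, 113 and 118 CPM with CIT. The groups overlapped with both guides. The log2 difference was 0.06 ± 0.048 with sgCtr (adjusted p = 0.366) and -0.02 ± 0.048 with sgNop16 (adjusted p = 0.796).

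Of the cytoplasmic ERK phosphatases, Dusp6, a widely used readout of ERK activity, rose with sgCtr. It was at 20.1, 14.9 and 18.5 CPM without CIT and 23.6, 26.8 and 28.03 CPM with CIT, and the groups did not overlap. The rise was 1.47-fold (log2 0.55 ± 0.12, adjusted p = 0.00126). With sgNop16 it was at 17.1, 22.4 and 18.0 CPM without and 24.8, 22.1 and 24.6 CPM with CIT. There the groups overlapped by 1 library and the difference of 0.31 ± 0.12 just missed the threshold (adjusted p = 0.0509). That value sat at the border: it was past the threshold in 9 of 21 alternative settings, among them DESeq2, and the adjusted p ranged from 0.0127 to 0.23 over them.

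Dusp7 was not called with either guide. It stood at 49.4, 54.0 and 48.9 CPM in sgCtr_no and at 48.7, 58.1 and 53.6 CPM in sgCtr_CIT. In sgNop16_no it was at 53.6, 51.3 and 48.6 CPM and in sgNop16_CIT at 50.6, 55.9 and 56.2 CPM. The groups overlapped with both guides. The log2 differences were 0.08 ± 0.068 (adjusted p = 0.427) and 0.08 ± 0.068 (adjusted p = 0.388). Dusp9, the other cytoplasmic ERK phosphatase, was close to the limit of detection, with 0.33 ± 0.402 CPM in sgCtr_no and 1.25 ± 0.305 in sgCtr_CIT.

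The phosphatases that act on JNK and p38 moved in opposite directions. Dusp10 was at 15.6, 17.4 and 19.2 CPM in sgCtr_no and at 68.7, 70.6 and 70.6 CPM in sgCtr_CIT. With sgNop16 it was at 19.3, 16.9 and 13.7 CPM without and 61.6, 66.2 and 64.4 CPM with CIT. The stimulated libraries stood well above the unstimulated ones with both guides. Dusp10 rose 4.01-fold with sgCtr (log2 2.00 ± 0.097, adjusted p = 6.03e-11) and 3.85-fold with sgNop16 (log2 1.94 ± 0.097, adjusted p = 1.03e-10).

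Dusp16 was at 36.8, 36.4 and 35.6 CPM in sgCtr_no and at 23.0, 24.4 and 22.4 CPM in sgCtr_CIT. With sgNop16 it was at 37.97, 40.6 and 39.4 CPM without and 34.96, 30.4 and 28.9 CPM with CIT. The stimulated libraries lay below the unstimulated ones with each guide, and by a wider gap with sgCtr. Dusp16 fell by 0.64 ± 0.072 on the log2 scale with sgCtr (1.56-fold lower, adjusted p = 1.85e-06) and by 0.33 ± 0.071 with sgNop16 (1.25-fold lower, adjusted p = 0.00158). Dusp8, which also acts on JNK and p38, was at 1.01 ± 0.65 CPM in sgCtr_no and 1.15 ± 0.456 in sgCtr_CIT.

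The CIT responses with the 2 guides do not share libraries with each other, but each shares its libraries with the guide comparisons that follow. Without CIT the guides gave no call among the 8 genes in edgeR, against 3.32% of all genes (1.79% higher and 1.53% lower), and 1 member, Dusp4, had an unadjusted p under 0.05 (0.0251). DESeq2 called 0 as well. Of the 558 genes called in this comparison 301 were higher and 257 lower with sgNop16, and with library totals in place of TMM factors the split was 362 to 189. Dusp4 was 0.45 ± 0.18 higher with sgNop16 on the log2 scale (adjusted p = 0.24), with 1 sgNop16_no library at 2.43 CPM among the sgCtr_no values of 2.43 to 2.98 and the other two at 4.22 and 4.78 CPM. Without that library, sgNop16_no replicate 1, the difference was 0.70 and was called (adjusted p = 0.0036). Dusp16 was the 1 member whose libraries did not overlap in this state (0.12 ± 0.071 higher, adjusted p = 0.494), against 18.8% of all genes.

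With CIT, Dusp16 was the 1 member called between the guides, where 6.16% of all genes were called, 3.39% higher and 2.77% lower. Its level was 34.96, 30.4 and 28.9 CPM in sgNop16_CIT against 23.0, 24.4 and 22.4 CPM in sgCtr_CIT. The lowest library with the guide against Nop16 lay above the highest with the control guide. Dusp16 was 1.35-fold higher with sgNop16 (log2 0.43 ± 0.072, adjusted p = 0.00165), and the call held in all 21 alternative settings, with log2 differences of 0.348 to 0.489 and adjusted p of 7.68e-08 to 0.0119. The sgNop16_CIT level of 31.4 ± 3.18 CPM (SD, n = 3) stood between those of sgCtr_CIT (23.3 ± 1.06) and sgCtr_no (36.2 ± 0.616).

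The other members were not called between the guides with CIT. Dusp4 was higher with sgNop16 in every library (45.4 to 49.7 against 40.05 to 42.0 CPM) and Dusp10 lower in every library (61.6 to 66.2 against 68.7 to 70.6 CPM), but the differences of 0.19 ± 0.14 (adjusted p = 0.543) and -0.13 ± 0.091 (adjusted p = 0.533) were within 1.5 times their SE. With Dusp16 this made 3 of 8 members without overlap, against 24.1% of all genes. Dusp1 differed by -0.14 ± 0.12, Dusp2 by -0.06 ± 0.048, Dusp5 by 0.04 ± 0.11, Dusp6 by -0.14 ± 0.12 and Dusp7 by 0.02 ± 0.068, with adjusted p of 0.565 to 0.926.

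**Figure D3:**
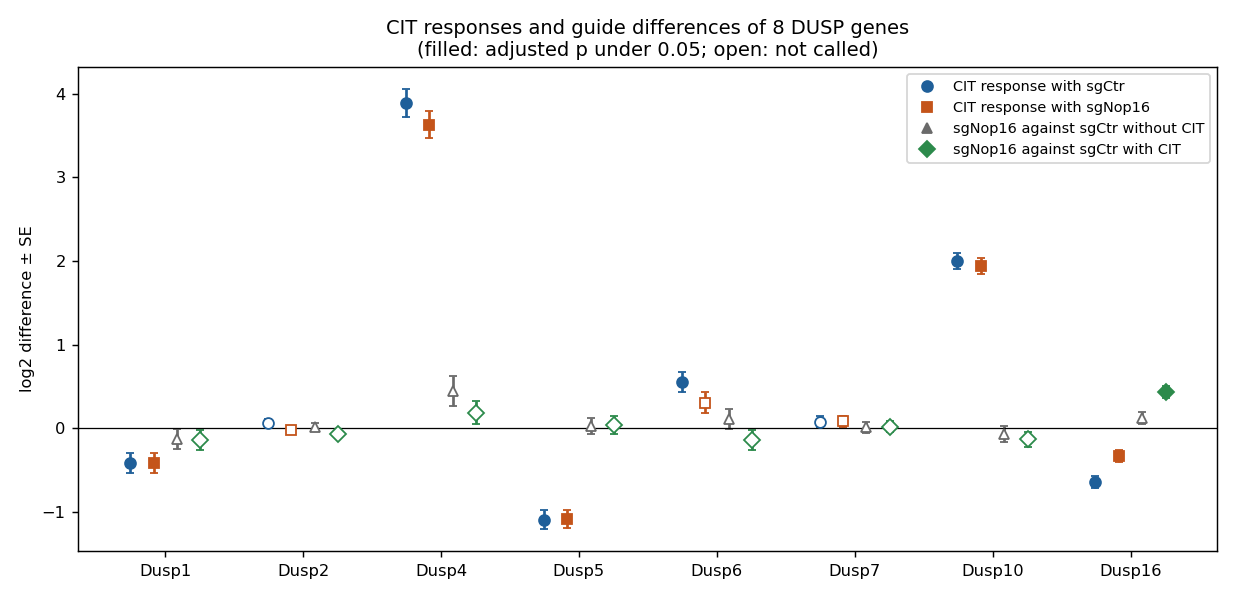
Log2 difference and its SE for each of the 8 genes in the CIT response with sgCtr and with sgNop16 and in the guide difference without and with CIT; filled symbols are called at an adjusted p under 0.05. Dusp4, at 3.89 and 3.63, has the largest differences, and Dusp16, at 0.43, is the 1 gene with a filled symbol for a guide difference.

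Whether the CIT response itself differed between the guides was tested as an interaction. In edgeR 0 of the 8 members were called, against 2.13% of all genes (0.881% positive and 1.25% negative), and 1 member had an unadjusted p under 0.05. The genes called were 148 with a positive and 210 with a negative difference, and 105 and 271 with library totals. The member was Dusp16, whose fall was smaller with sgNop16 by 0.31 ± 0.10 on the log2 scale (unadjusted p = 0.00691, adjusted p = 0.138). DESeq2 called it (adjusted p = 0.0268), and the difference was positive in all 20 alternative settings, from 0.228 to 0.369. The differences of Dusp4 (-0.26 ± 0.23, adjusted p = 0.716), Dusp6 (-0.24 ± 0.17, adjusted p = 0.614) and Dusp10 (-0.06 ± 0.13, adjusted p = 0.915) were within 1.5 times their SE. Those of Dusp1 (-0.01 ± 0.17) and Dusp5 (0.01 ± 0.15) were near 0.

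The proximal promoters of the members that CIT changed were compared by sequence. RefSeq's promoter table for GRCm38.p6 held 7 of the 8 members, all but Dusp4, and the 250 bases before the start were read on the gene's strand. The 5 members called with sgCtr are shown, with matches to the motifs named next in capitals. The motifs, searched on both strands, were kappa B (GGG, any 5 bases, then CC), STAT6 (TTC, any 4 bases, then GAA), the cAMP response element (TGACGTCA), AP-1 (TGANTCA), the E-box (CACGTG), the EGR site (GCGNGGGCG), the TATA box (TATAAA) and the CArG box. Dusp10 and Dusp6 rose with CIT, and Dusp5, Dusp16 and Dusp1 fell.
Dusp10: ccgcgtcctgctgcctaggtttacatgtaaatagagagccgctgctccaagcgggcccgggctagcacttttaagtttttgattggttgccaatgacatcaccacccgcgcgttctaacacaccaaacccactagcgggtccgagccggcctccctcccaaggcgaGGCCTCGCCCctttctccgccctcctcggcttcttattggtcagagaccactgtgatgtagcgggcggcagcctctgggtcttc
Dusp6: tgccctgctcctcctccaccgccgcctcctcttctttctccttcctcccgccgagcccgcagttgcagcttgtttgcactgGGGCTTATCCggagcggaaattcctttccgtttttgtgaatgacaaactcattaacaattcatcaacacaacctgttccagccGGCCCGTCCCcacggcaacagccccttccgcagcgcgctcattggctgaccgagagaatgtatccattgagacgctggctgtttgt
Dusp5: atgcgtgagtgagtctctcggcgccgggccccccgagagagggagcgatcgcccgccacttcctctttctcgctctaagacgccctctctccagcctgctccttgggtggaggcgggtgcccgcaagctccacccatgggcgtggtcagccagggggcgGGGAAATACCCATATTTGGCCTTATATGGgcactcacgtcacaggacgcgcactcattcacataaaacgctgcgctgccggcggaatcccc
Dusp16: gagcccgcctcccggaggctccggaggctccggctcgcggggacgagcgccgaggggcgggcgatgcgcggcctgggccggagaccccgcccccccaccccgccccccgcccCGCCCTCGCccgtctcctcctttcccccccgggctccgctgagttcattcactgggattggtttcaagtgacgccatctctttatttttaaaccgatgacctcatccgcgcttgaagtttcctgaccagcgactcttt
Dusp1: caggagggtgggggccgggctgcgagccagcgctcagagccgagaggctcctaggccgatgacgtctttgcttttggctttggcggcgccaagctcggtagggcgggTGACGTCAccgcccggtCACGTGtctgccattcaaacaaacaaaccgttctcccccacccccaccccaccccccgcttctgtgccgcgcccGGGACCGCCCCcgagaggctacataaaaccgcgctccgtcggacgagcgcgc
These are chr1:184034131-184034380 for Dusp10, chr10:99262981-99263230 for Dusp6 and chr19:53528895-53529144 for Dusp5, all on the plus strand. Dusp16 lies at chr6:134792629-134792878 and Dusp1 at chr17:26508473-26508722, both on the minus strand. The start used for Dusp16 is not the start of a GENCODE transcript.

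Matches differed between the members. Positions are counted back from the start, with -1 as the last base shown. Dusp5 had 2 matches to the CArG box, the site of serum response factor, at -82 to -73 and -72 to -63, a motif found in 1.47% of 32851 promoters. Beside them, from -91 to -81, stood overlapping kappa B matches on both strands that share 2 bases with the first CArG box. Dusp1 had a full cAMP response element at -143 to -136 (1.55% of all promoters) and an E-box at -126 to -121 (6.02%). Dusp16 had an EGR match on the minus strand at -138 to -130 (4.7%). Dusp2, which was not called with CIT, had both an E-box, at -109 to -104, and an EGR match, at -98 to -90. The short kappa B motif was found in 45.8% of all promoters and in 6 of the 7 members, on both sides of the response. None of the 7 held the STAT6 (5.85% of promoters), AP-1 (6.75%) or TATA letters (12.4%) in this window. GC content was 56.4 to 77.2% in the 7 members against a median of 52.4%.

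Other genes of the family were measured beside the 8. Of 24 listed relatives (other DUSP genes, slingshot and PTP4A phosphatases and STYX), 19 table entries for 18 symbols were tested. With sgCtr, 6 entries rose and 4 fell with CIT, with a median log2 difference of 0.17, beside 20.4% higher and 20.9% lower over all genes. Dusp3, a small phosphatase that lacks the kinase-binding domain and acts on ERK and JNK, fell from 55.2 ± 5.39 to 25.4 ± 0.848 CPM (log2 -1.12 ± 0.081, adjusted p = 9.37e-09). Dusp14 fell from 14.9 ± 0.985 to 7.995 ± 0.525 CPM (log2 -0.90 ± 0.10, adjusted p = 2.65e-06). Dusp9 was called higher (log2 1.95 ± 0.60, adjusted p = 0.0157) at the low level given above, where the 3 sgCtr_no libraries held 31, 3 and 6 counts. Its difference was 3.63 without sgCtr_no replicate 1, and the call was lost without sgCtr_no replicate 2, sgCtr_no replicate 3 or sgCtr_CIT replicate 1 (highest adjusted p = 0.0666). Ptp4a1 is split over 2 table entries that share the symbol, one called higher (1.17 ± 0.44, a call lost in 7 of 12 fits with 1 library left out) and the other lower (-0.34 ± 0.087), and its direction is uncertain. With sgNop16, 6 rose and 5 fell, with a median of 0.03, beside 18.9% higher and 18.2% lower over all genes. Between the guides Dusp18 was called with CIT, at 31.3 ± 0.659 CPM with sgNop16 and 25.5 ± 1.88 with sgCtr (log2 0.29 ± 0.075, adjusted p = 0.0277), 1 of 19 entries against 6.16% of all genes. That call was lost in 5 of 12 fits with 1 library left out, those without sgCtr_CIT replicate 2 or 3 or any 1 of the sgNop16_CIT libraries (highest adjusted p = 0.118).

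Phosphatases outside the DUSP family that act in the MAPK pathways or on their receptors had more members lower than higher with CIT. Of 12 tested, 8 fell and 1 rose with sgCtr (median log2 -0.31), and 7 fell and 1 rose with sgNop16 (median -0.19). Over all genes 20.9% fell and 20.4% rose with sgCtr, and 18.2% and 18.9% with sgNop16. Ptpn22, a phosphatase of antigen receptor signalling, was the 1 that rose, from 74.4 ± 2.92 to 161 ± 4.01 CPM (log2 1.11 ± 0.039, adjusted p = 1.02e-12). Ptpn7, which dephosphorylates ERK in blood cells, fell by 0.43 ± 0.048 (adjusted p = 1.78e-06), and Ppm1a, a serine/threonine phosphatase of p38 and JNK, fell by 0.40 ± 0.055 (adjusted p = 1.71e-05). Between the guides without CIT, Ptpn6, the phosphatase SHP-1 of inhibitory receptors, was 0.22 ± 0.025 higher with sgNop16 (adjusted p = 8.12e-05) and Ppm1b 0.15 ± 0.039 lower (adjusted p = 0.042), 2 of 12 against 3.32% of all genes. The call of Ppm1b held in 1 of 12 fits with 1 library left out, the one without sgCtr_CIT replicate 2 (highest adjusted p = 0.172), and that of Ptpn6 in all 12. With CIT, Ptpn6 was 0.11 ± 0.025 higher (adjusted p = 0.0115) and Ptpn11 0.12 ± 0.026 lower (adjusted p = 0.0113), calls that held in 11 and 10 of the 12 fits.

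The kinase cascades that the members act on changed in both directions. Of 24 tested genes from RAS to ERK, 9 rose and 7 fell with CIT and sgCtr (median log2 0.10), and 8 rose and 7 fell with sgNop16 (median 0.03). Over all genes 41.4% were called with sgCtr and 37% with sgNop16, in nearly equal shares of higher and lower. Rasgrp2 rose by 0.73 ± 0.055 and Rasgrp3, which loads RAS with GTP, by 0.69 ± 0.055. Hras fell by 0.77 ± 0.076 and Mapk7 by 0.42 ± 0.084. Of 23 tested genes of the JNK and p38 cascades, 8 rose and 5 fell with each guide (medians 0.06 with sgCtr and 0.09 with sgNop16). Map3k14, the kinase NIK of the non-canonical NF-κB pathway, rose from 19.2 ± 0.391 to 56.8 ± 2.15 CPM with sgCtr (log2 1.56 ± 0.071, adjusted p = 2.59e-11). Map2k6, which activates p38, rose by 1.13 ± 0.16, and Map2k3 and the p38 gene Mapk14 fell by 0.51 ± 0.068 and 0.44 ± 0.044.

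Other inhibitors of the RAS to ERK pathway, 16 tested, included 8 that rose and 3 that fell with sgCtr (median log2 0.15), and 5 that rose and 3 that fell with sgNop16 (median 0.16). The shares over all genes were 20.4% higher and 20.9% lower with sgCtr, and 18.9% and 18.2% with sgNop16. Rasal3, a RAS GTPase-activating protein of blood cells, rose from 121 ± 5.23 to 250.2 ± 4.62 CPM with sgCtr (log2 1.05 ± 0.037, adjusted p = 1.06e-12), and Rasa3 rose by 0.67 ± 0.11. Spred2, an inhibitor of RAF activation, fell from 62.0 ± 3.59 to 29.2 ± 2.27 CPM (log2 -1.09 ± 0.07, adjusted p = 2.08e-09). Dok3, an adaptor that dampens antigen receptor signalling, fell from 75.1 ± 0.871 to 36.9 ± 1.22 CPM (log2 -1.02 ± 0.053, adjusted p = 1.43e-10).

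Of 22 tested genes known as transcriptional targets or effectors of ERK, 12 rose and 3 fell with CIT and sgCtr, and 12 rose and 4 fell with sgNop16. Of all genes 20.4% rose and 20.9% fell with sgCtr, and 18.9% and 18.2% with sgNop16. The medians were 0.34 and 0.27, the highest of the pathway lists. Fosb rose from 0.306 ± 0.0681 to 1.98 ± 0.757 CPM and Egr2 from 9.08 ± 1.25 to 27.4 ± 1.43 CPM with sgCtr (log2 2.68 ± 0.44 and 1.59 ± 0.10). Myc fell from 455 ± 6.49 to 197 ± 7.43 CPM (log2 -1.21 ± 0.03, adjusted p = 1.58e-14). Etv5, which like Dusp6 is induced by ERK in many tissues, fell with sgCtr (log2 -0.77 ± 0.10, adjusted p = 1e-05) where Dusp6 rose by 0.55 ± 0.12.

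This was also the pathway list with the most calls between the guides. Without CIT, 4 of 22 were higher with sgNop16 and 0 lower in edgeR (1.79% of all genes were called higher); at an unadjusted p under 0.05, 9 were higher and 0 lower, and DESeq2 called 7 higher and 0 lower. Over all 16794 genes, 1245 were higher at an unadjusted p under 0.05, and edgeR called 301 higher. DESeq2, which was run on the table before the low-count filter, called 625 higher. Egr2 was at 14.1 ± 1.47 against 9.08 ± 1.25 CPM (log2 0.63 ± 0.11, adjusted p = 0.00275), and Egr1 at 33.2 ± 0.629 against 23.0 ± 0.422 CPM (log2 0.53 ± 0.073, adjusted p = 0.000563). The other two were Etv5 (0.44 ± 0.098) and Elk3 (0.20 ± 0.041), named after their values were seen. With CIT, 5 were higher, where 3.39% of all genes were, led by Phlda1 (log2 0.65 ± 0.13, adjusted p = 0.00502) and Fosl2 (0.61 ± 0.16, adjusted p = 0.0329). The call of Fosl2 was lost in 5 of 12 fits with 1 library left out, those without sgCtr_CIT replicate 1 or 2 or any 1 of the sgNop16_CIT libraries (highest adjusted p = 0.125). The 8 DUSP genes, several of them ERK targets too, had no call in the first of these comparisons and the single call of Dusp16 in the second. Over all genes 3.32% and 6.16% were called either way, so few calls among 8 genes do not set them apart. In the first comparison Dusp4 was higher at an unadjusted p under 0.05. Most of these lists hold genes that answer to other pathways as well, and no test of a list against other genes was made.

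**Figure D4:**
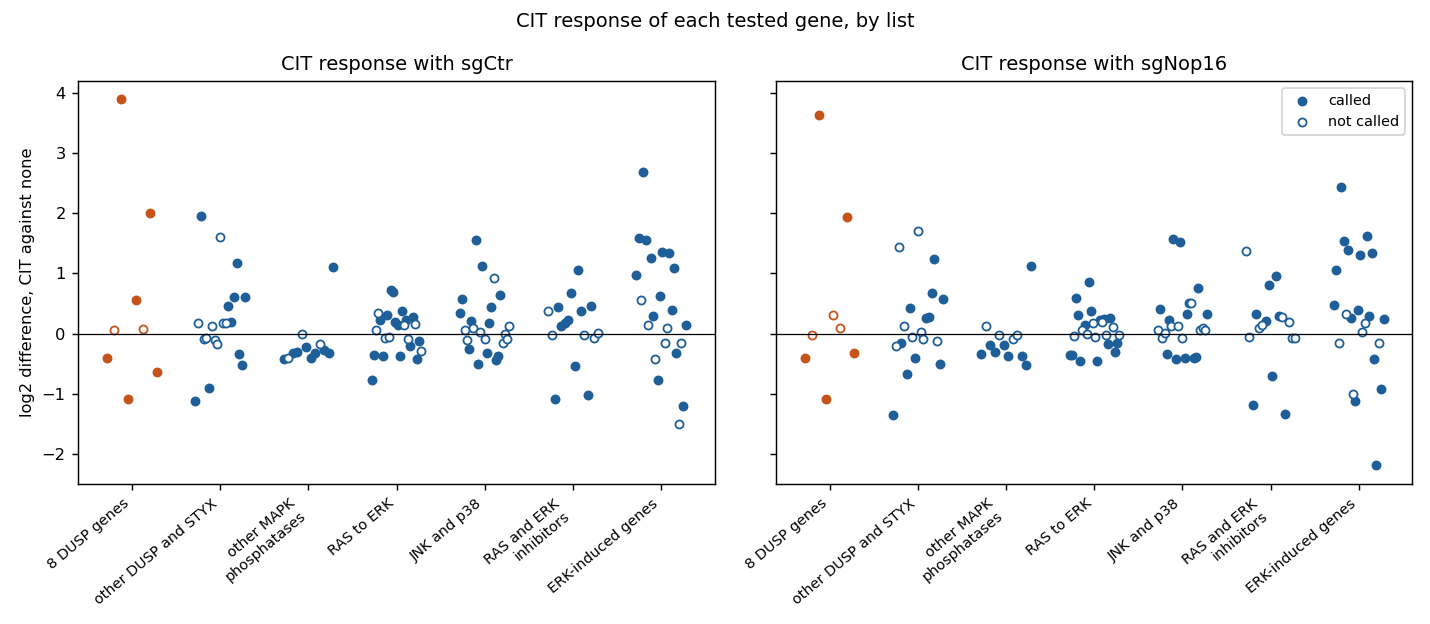
Log2 difference between CIT and no stimulation for each tested gene, in columns by list, with sgCtr on the left and sgNop16 on the right; filled points are called at an adjusted p under 0.05. Of the ERK-induced genes 12 of 22 rose with each guide, and of the other MAPK phosphatases 8 of 12 fell with sgCtr.

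For each member the genes with the most similar pattern were found over the 4 group means of log2 CPM, centred on their mean, among 9454 genes with a mean of at least 5 CPM. Likeness was the root mean square difference between the patterns, which rests on 4 points. For Dusp10 these were Gadd45g (0.04), at 4.45, 18.7, 4.12 and 16.7 CPM in sgCtr_no, sgCtr_CIT, sgNop16_no and sgNop16_CIT, and Tmc8 (0.04). For Dusp4 they were Slc2a6 (0.08), at 7.01, 89.9, 7.99 and 104.7 CPM, and Myo1h (0.13). For Dusp5 they were Vgll4 (0.03) and Pdxk (0.03), and for Dusp16 Comtd1 (0.03) and Rrp12 (0.03).

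Rrp12, a ribosome biogenesis factor, stood at 113, 75.6, 128 and 98.4 CPM in the same order of groups. Like all genes named here, it was picked for its likeness over these 4 means. That it too was lowest in sgCtr_CIT thus follows from the choice. Comtd1, Tmc8, Myo1h, Pdxk and Elf2 share exon bases with genes on the opposite strand. The patterns of Dusp4 had the largest distance to their nearest genes among the 8 members. The nearest genes were Zdhhc18 and Fgd6 for Dusp1, Slc25a36 and Ubl3 for Dusp6, Setd2 and Clk2 for Dusp2, and Elf2 and Cnot4 for Dusp7. The last 2 pairs follow patterns that were nearly flat.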

How the data were processed

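RNA was measured in 12 libraries, 3 in each of 4 groups. The authors deposited a table of estimated counts in whole numbers, with no scaling to depth. The submitters' processing notes name HISAT2 2.2.1, StringTie 2.2.1 and the build GRCm39, without roles. Per the labels' protocols a directional kit was used. The sources used here do not say whether counting used strand. Low values were in excess at 4 (8845 values, against 7532 at 3 and 4025 at 5), and a fragment may thus count as about 4, although no source says so. Values were used as deposited, and division by 4 was an alternative.

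Symbols (52000 of 56941 genes), exon lengths and overlaps came from GENCODE for GRCm38. Genes were filtered by filterByExpr (16794 kept) and tested with edgeR 4.0.16 in R 4.3.3 (quasi-likelihood F test, TMM factors of 0.985 to 1.01), with all 12 libraries in 1 model of group means (common dispersion 0.015). Calls used an adjusted p under 0.05 (Benjamini-Hochberg). Levels are CPM with the SD of 3 libraries. Alternatives included DESeq2 1.42.0, run on the table without the filterByExpr step, and robust dispersion was added after seeing the data. The procedure was tested on simulated data for the CIT response with sgCtr, with a dispersion of 0.015 for every gene. It recovered 100 of 100 genes changed 2-fold and 68 of 100 changed 1.5-fold, with 6 false calls. Smaller differences were not simulated, so a gene that was not called may still differ.

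The members and gene lists were chosen with earlier results of these data known. Beyond the 8 members and Nop16, each list gave up to 2 called genes each way per comparison, those with the largest change and at least 1 CPM in the higher group. Each member also gave the 2 genes with the most similar pattern, gene model names left out. A gene named once could be named again.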

Additional observations from a re-analysis of the deposited data

Results flagged for a closer look

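Among the genes named beside the 8 DUSP phosphatases, 8 had a CIT response that differed between the guides in the interaction test of edgeR (adjusted p under 0.05 over all genes). Each value is the log2 response with sgNop16 minus that with sgCtr, and all 12 libraries enter it. These genes were named by this same test, as each list gave up to 2 called genes each way. That all 8 were called thus follows from how they were picked. Over all genes 2.13% were called.

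Egr1, an early-response transcription factor, differed by -0.51 ± 0.10 (adjusted p = 0.015). It stood at 23.0 and 45.4 CPM without and with CIT in sgCtr cells, and at 33.2 and 45.9 CPM in sgNop16 cells. Myc differed by 0.29 ± 0.042 (adjusted p = 0.00183), falling from 455 to 197 CPM with sgCtr and from 463 to 245 CPM with sgNop16. For the activator Rasgrp3 the value was -0.32 ± 0.077 (adjusted p = 0.043; the call held in 3 of 12 fits with 1 library left out, those without sgCtr_no replicate 2, sgNop16_no replicate 1 or sgNop16_no replicate 2), and for Map3k1, a kinase upstream of JNK, -0.28 ± 0.059 (adjusted p = 0.0213; 0.0524 without sgNop16_CIT replicate 3). Map3k1 rose with sgCtr (173 to 219 CPM), while with sgNop16 it was at 168 and 175 CPM. For the inhibitory adaptor Dok3 it was -0.31 ± 0.075 (adjusted p = 0.0456), a call that held in 1 of the 12 fits, the one without sgNop16_CIT replicate 2.

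The phosphatases Ppm1b and Ptpn11 differed by 0.22 ± 0.056 (adjusted p = 0.0489) and -0.20 ± 0.037 (adjusted p = 0.00774). The call of Ppm1b was lost in all 12 fits with 1 library left out (adjusted p = 0.0598 to 0.152), and that of Ptpn11 held in all 12. The B cell surface gene Ms4a1, which codes for CD20, differed by -0.41 ± 0.045 (adjusted p = 0.000152), falling from 330.1 to 278 CPM with sgCtr and from 302 to 192 CPM with sgNop16.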

How the results depend on the processing

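The CIT calls of Dusp4, Dusp5, Dusp10 and Dusp16 with both guides, that of Dusp6 with sgCtr and the guide difference of Dusp16 with CIT kept their direction and call in all 21 alternatives. Over the 40 differences of the 8 genes, 780 of 832 values kept direction and side of the threshold, 2 lost a call (Dusp1), 11 gained one and 39 changed sign, all 39 from differences that were not called. For the counts of calls, DESeq2 gave 1216 genes for the guides without CIT (558 in edgeR), 1959 with CIT (1034) and 1044 for the interaction (358), with 1 DUSP member, Dusp16, in the last, and no low-count filter gave 207 for the interaction. Leaving out 1 library gave 352 to 516, 617 to 981 and 215 to 277 genes in these 3 comparisons, and 0 to 1 members for the guides without CIT. The cause of these shifts was not tested.

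Signs changed in the interaction with library totals for Dusp5 (-0.00965) and Dusp7 (-0.0152), and for Dusp7 with the stricter filter (-0.00189). Without 1 library each, the interaction ran from -0.0992 to 0.0635 for Dusp1, -0.0752 to 0.126 for Dusp5, -0.0559 to 0.0706 for Dusp7 and -0.192 to 0.0491 for Dusp10. The guide difference without CIT ran from -0.00188 to 0.0368 for Dusp2, -0.000121 to 0.0888 for Dusp5, -0.0191 to 0.20 for Dusp6, -0.0203 to 0.0612 for Dusp7 and -0.185 to 0.0565 for Dusp10. With CIT it ran from -0.0456 to 0.155 for Dusp5 and -0.0426 to 0.0838 for Dusp7. The CIT response of Dusp2 with sgNop16 ran from -0.0741 to 0.0197.

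For same-numbered libraries of different groups, the correlation of their deviations was over 0.1 in 5 of 18 pairs and ran from -0.32 to 0.20. Pairs with different numbers were not compared, so whether same-numbered libraries deviate together was not tested. With the replicate number as a block, 6803 and 6103 genes were called for CIT with sgCtr and sgNop16, 477 and 920 for the guides without and with CIT and 278 for the interaction. The block called 6, 5, 0, 1 and 0 of the 8 members in these comparisons, the same numbers as without it. Dusp4 held 95 to 200 counts per library without CIT, which limits the precision of its guide difference there.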

Other observations

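The 3′ untranslated regions of the 8 genes differed in how often they hold ATTTA, the core of AU-rich elements that are known to shorten the life of early-response mRNAs. In GENCODE transcripts of GRCm38, Dusp2 had 4 in 581 bases and Dusp1 4 in 690 bases, which is 6.88 and 5.8 per kb. These stood at the 97.3 and 95.6 percentile of 11211 tested genes with at least 100 bases of 3′ untranslated region, where the median was 1.23 per kb. Dusp10 had 2.7 per kb, Dusp4 1.8, Dusp16 1.24, Dusp5 0.9 and Dusp6 0.84, and Dusp7 had 0 in 1778 bases. The densest gene, Dusp2, and the gene with none, Dusp7, were the 2 members not called with CIT for either guide. RNA stability was not measured in these libraries.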
